A study of Mus musculus with 3 samples.

Results

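The collagen cross-linking and hydroxylating enzymes described here are 10 mouse genes taken by symbol from a table of 24421 genes: the lysyl oxidase genes Lox, Loxl1, Loxl2 and Loxl3, the lysyl hydroxylase genes Plod1, Plod2 and Plod3, and the prolyl 4-hydroxylase alpha subunit genes P4ha1, P4ha2 and P4ha3. Their RNA-seq read counts were examined in JB6 P+ cells, a mouse epidermal line that is transformed by tumour promoters and is labelled as skin epithelium. There were 3 libraries of total RNA, 1 per group. The control group carries no named treatment. The TPA group received the phorbol ester TPA, an activator of protein kinase C, at 10 ng/mL, and the CDDO+TPA group received TPA at that dose with 50 nM CDDO, a synthetic triterpenoid that activates the NRF2 pathway. Both treatments were renewed on alternate days over 5 days in low-serum medium; the control's medium, vehicle and time in culture are not given in the sources used here, so differences from control cannot be told apart from those. Triplets of values below run from control through TPA to CDDO+TPA. The libraries held between 7813035 and 8190078 reads assigned to genes. With 1 library per group there is no estimate of the spread between cultures, no test was possible, and every interval below covers counting error only.

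Collagen chains are modified before and after they leave the cell. In the endoplasmic reticulum, prolyl 4-hydroxylases convert prolines to hydroxyproline, which keeps the triple helix stable at body temperature, and lysyl hydroxylases convert lysines to hydroxylysine, which carries sugars and forms the more stable cross-links. Both enzyme groups need iron, ascorbate, oxygen and 2-oxoglutarate. Outside the cell the copper-dependent lysyl oxidases oxidise lysine and hydroxylysine in collagen and elastin, and the aldehydes so formed join into cross-links. In skin and in tumour stroma these cross-links set the stiffness of the matrix, and P4ha1, P4ha2, Plod2 and Lox are textbook targets of the hypoxia-inducible factor HIF.

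Promoter sequences are shown first for the prolyl hydroxylase subunits, because P4ha1 and P4ha2 kept a nearly fixed ratio to each other while P4ha3 did not follow them, and for Plod3, a hydroxylase that differed little between libraries. Entries of the RefSeq promoter table (GRCm38.p6, the assembly also called mm10) matched 5 of the 10 genes, Plod1, Plod3, P4ha1, P4ha2 and P4ha3; Lox, Loxl1, Loxl2, Loxl3 and Plod2 were not matched. Each sequence is the stretch of 250 bases before the start site, 5′ to 3′ on the gene's strand, and capitals mark the hypoxia response core ACGTG on either strand. The windows lie at chr10:59323046-59323295 (plus strand) for P4ha1, chr11:54100674-54100923 (plus strand) for P4ha2, chr7:100285270-100285519 (plus strand) for P4ha3 and chr5:136986769-136987018 (plus strand) for Plod3.
P4ha1: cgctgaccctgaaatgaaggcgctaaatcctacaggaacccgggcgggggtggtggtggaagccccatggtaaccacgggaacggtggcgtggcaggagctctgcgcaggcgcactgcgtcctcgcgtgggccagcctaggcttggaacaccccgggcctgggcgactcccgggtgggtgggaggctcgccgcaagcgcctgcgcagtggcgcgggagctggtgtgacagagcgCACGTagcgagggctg
P4ha2: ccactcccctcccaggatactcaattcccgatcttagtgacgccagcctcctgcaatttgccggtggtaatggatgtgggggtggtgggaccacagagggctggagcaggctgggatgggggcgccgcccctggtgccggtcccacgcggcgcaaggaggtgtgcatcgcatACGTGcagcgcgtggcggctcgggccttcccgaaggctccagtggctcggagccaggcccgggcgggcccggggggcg
P4ha3: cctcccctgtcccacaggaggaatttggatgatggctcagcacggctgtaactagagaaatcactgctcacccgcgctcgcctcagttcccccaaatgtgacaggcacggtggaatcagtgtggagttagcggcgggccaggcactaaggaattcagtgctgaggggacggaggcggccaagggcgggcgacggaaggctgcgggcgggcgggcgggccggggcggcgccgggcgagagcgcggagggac
Plod3: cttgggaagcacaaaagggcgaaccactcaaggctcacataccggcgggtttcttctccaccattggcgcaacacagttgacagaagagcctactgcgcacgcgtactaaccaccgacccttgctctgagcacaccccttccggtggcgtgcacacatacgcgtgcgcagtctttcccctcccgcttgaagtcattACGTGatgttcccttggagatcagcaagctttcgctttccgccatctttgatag

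The core was found once each before P4ha1 (bases -16 to -12 from the start site, on the minus strand), P4ha2 (-78 to -74) and Plod3 (-54 to -50), and in neither the P4ha3 nor the Plod1 window. Of all 32851 promoters of the table, 16.6% held it in the same 250 bases. The P4ha1 window also held the antioxidant response pattern TGACNNNGC at -26 to -18, found in 10.2% of promoters, and the Plod1 window held the SMAD element CAGAC at -74 to -70 on the minus strand, found in 42.2%. The AP-1 site TGANTCA, present in 6.75% of promoters, was in none of the 5 windows. These matches are letters in a window and describe neither binding nor a cause.

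Levels between genes are compared as RPKM, where CPM is the read count scaled to 1000000 reads of its library and RPKM is CPM divided by the exon length in kilobases. In the control library the order was Loxl1 (74.3 RPKM), Plod3 (71.6), P4ha2 (65.5), Plod1 (57.2), P4ha1 (48.7) and Plod2 (42.9), then Loxl3 (9.46), P4ha3 (2.64), Lox (0.582) and Loxl2 (0.0723). Loxl1 and Plod3 did not differ beyond counting error, with a ratio of 1.04 (95% interval 0.974 to 1.11). The line thus held 6 abundant enzymes of this set within 2-fold of each other, and Lox, the founding member of the oxidase family, was among the 2 lowest.

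The order differed in the treated libraries. In the TPA library P4ha2 (91.8 RPKM) and Plod2 (79.1) stood first, followed by Plod3 (66.3) and P4ha1 (62.4), which were not separable by counting error, and then Loxl1 (45.8) and Plod1 (42.1). In the CDDO+TPA library P4ha2 stood first at 77.6 RPKM, and Plod3 (60.2), Plod2 (57.5) and P4ha1 (56.8) came next, where counting error did not separate Plod3 from Plod2 or Plod2 from P4ha1. Plod1 (52.9) and Loxl1 (42.1) followed. At the low end Lox and Loxl2 were not separable in either treated library. Loxl3, at 8.62 and 8.07 RPKM in the 2 treated libraries, held the same seventh place in all 3.

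**Figure D1:**
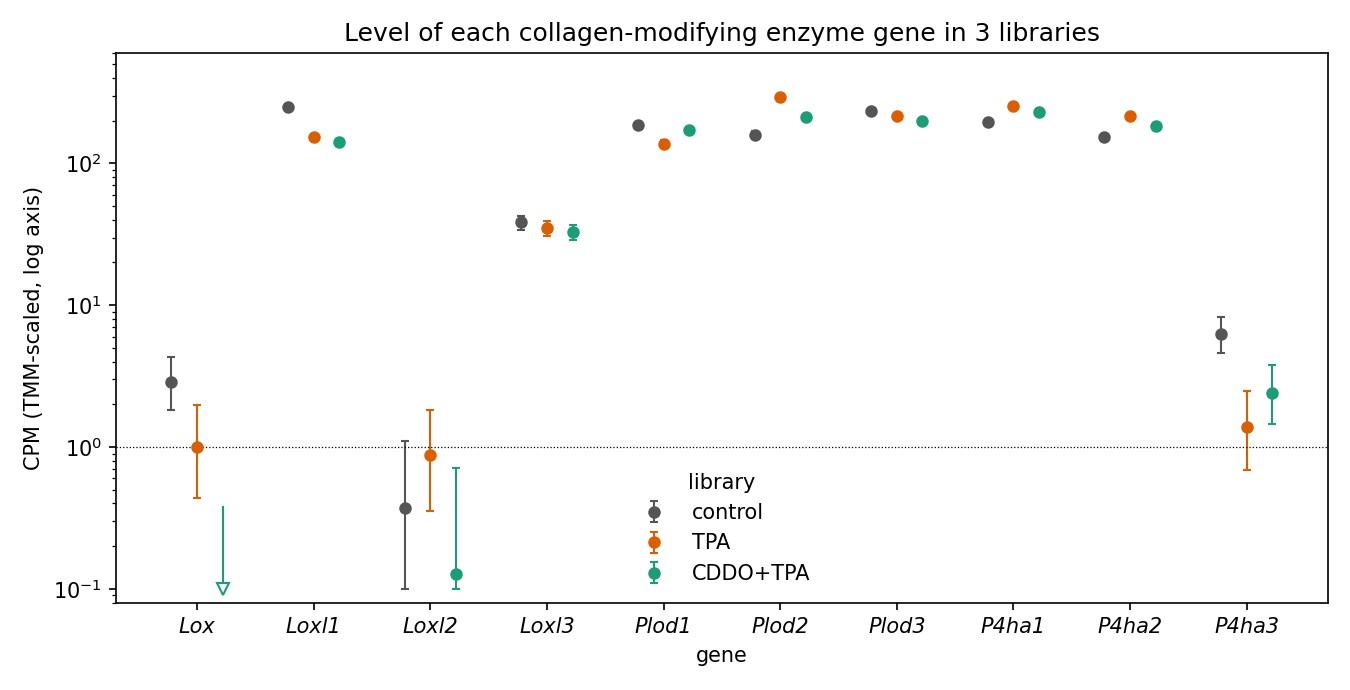
Level of each of the 10 genes (horizontal axis) as TMM-scaled CPM on a log axis, 1 point per library with exact Poisson 95% intervals; the dotted line marks 1 CPM, the open triangle is a library with 0 reads and the line above it reaches the floor of 3 counts, and lower bars are cut off at 0.1. Points of Loxl1, Plod1, Plod2, Plod3, P4ha1 and P4ha2 lie between 137 and 294 CPM, Loxl3 between 32.7 and 38.3, and Lox, Loxl2 and P4ha3 at or below 6.24.

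Between libraries, most of these genes differed by less than 2-fold. Taken without its sign, the median log2 fold change of the 9 measured enzymes was 0.49 in TPA against control, beside 0.38 over all measured genes, and 0.24 beside 0.36 in CDDO+TPA against TPA. The counting interval of the fold left out 1 for 8 of the 10 genes in TPA against control, beside 62.9% of all measured genes, and for 7 of the 10 in CDDO+TPA against TPA, beside 63.0%. Such intervals narrow as reads rise, so these counts depend on depth as well as on the size of a difference. The size rule used here asks for a difference of at least 2-fold in either direction, as a log2 fold change of CPM with a prior count of 2, and for a counting interval that leaves out a fold of 1. It was applied to 13100 genes that reached 1 CPM in any library, among them 9 of the 10 enzymes; Loxl2 lay below that minimum. In TPA against control, 0 of the 10 were higher, where 9.57% of all measured genes were, and 2 were lower, Lox and P4ha3, where 5.91% were. In CDDO+TPA against TPA, 0 were higher (7.87% of all measured genes) and 1 was lower, Lox (7.78%). In CDDO+TPA against control, 0 were higher (8.02%) and Lox and P4ha3 were lower (3.37%). Both were highest in control and had at most 50 reads in any library, so these counts describe a pair of sparse genes and say nothing of the set. With an assumed coefficient of variation of 0.4 in the intervals, only P4ha3 in TPA against control and Lox in CDDO+TPA against control were past the rule. None of the 7 more abundant genes was past the rule in any comparison. Of genes with a mean of at least 10 CPM, 3.85% were higher and 4.81% lower in TPA against control. In CDDO+TPA against TPA these shares were 5.28% and 2.3%, and in CDDO+TPA against control 5.13% and 1.67%. With shares this small, 0 of 7 says little of these genes.

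Plod2 encodes lysyl hydroxylase 2, which acts on the telopeptide lysines that give rise to the stable pyridinoline cross-links. It had 159, 294 and 213 CPM (1276, 2339 and 1683 reads). The TPA library was the highest, the control the lowest, and no 2 counting intervals overlapped. The fold was 1.84 in TPA against control (95% counting interval 1.72 to 1.98), below the size rule, and 20.3% of all measured genes had a log2 fold change at least as large in size. The CDDO+TPA library was 1.38-fold lower than the TPA library (1.29 to 1.47) and 1.34-fold higher than control (1.24 to 1.44). Plod2 lies on chromosome 9, 92542223 to 92608427, plus strand in mm10, and shares 346 exonic bases with B430319G15Rik on the other strand, a gene with 5, 13 and 10 reads.

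Plod1, whose product hydroxylates lysines within the triple helix, had 186, 137 and 172 CPM. It was lowest in the TPA library, 1.36-fold below control (1.25 to 1.47), and 1.26-fold higher in CDDO+TPA than in TPA (1.16 to 1.36). Plod3, which encodes an enzyme with lysyl hydroxylase and collagen glucosyltransferase activity, had 235, 217 and 197 CPM. Its TPA library was 1.08-fold below control (1.01 to 1.15), and CDDO+TPA was 1.10-fold below TPA (1.03 to 1.18). Plod3 shares 315 exonic bases with Znhit1 on the other strand, which had 380, 373 and 338 reads, so that reads of this stretch cannot be told apart without strand. Plod1 lies on chromosome 4, 147909753 to 147936776, minus strand, and Plod3 on chromosome 5, 136987019 to 136996646, plus strand.

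The makeup of the lysyl hydroxylase family, which does not depend on how the libraries were scaled, differed between them. Plod2 held 27.5% of the family's reads in control (exact binomial interval 26.2 to 28.8), 45.3% in TPA (44.0 to 46.7) and 36.6% in CDDO+TPA (35.2 to 38.0). Plod1 held 32.1%, 21.1% and 29.5%, and Plod3 held 40.5%, 33.5% and 33.9%. By reads Plod3 was first in control and Plod2 in both treated libraries. Per exon length Plod2 was first in TPA only, with 42.2% of the summed RPKM beside 35.3% for Plod3, while in CDDO+TPA it held 33.7% beside 35.3%. The ratio of Plod3 to Plod2 per length was 1.05 there (0.978 to 1.12), so counting error did not separate the pair. The ratio of Plod2 to Plod1 was 2.50 times as high in TPA as in control (2.26 to 2.78), whereas the summed level of the 3 genes was only 1.12 times as high (1.07 to 1.16), at 580, 648 and 583 CPM.

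The prolyl 4-hydroxylase alpha subunits form tetramers with the protein disulfide isomerase encoded by P4hb, and the alpha subunit holds the catalytic site. P4ha1, the main alpha subunit in most cells, had 197, 252 and 230 CPM (1579, 2010 and 1812 reads). It was 1.28-fold higher in TPA than in control (1.20 to 1.37), and 1.10-fold lower in CDDO+TPA than in TPA (1.03 to 1.17). P4ha2, an alternative alpha subunit, had 154, 215 and 182 CPM (1230, 1714 and 1436 reads). It was 1.40-fold higher in TPA than in control (1.30 to 1.51) and 1.18-fold lower in CDDO+TPA than in TPA (1.10 to 1.27). For both genes the TPA library was the highest and the control the lowest, and each difference was below the size rule.

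P4ha1 and P4ha2 stayed in nearly the same proportion to each other. The ratio of P4ha2 to P4ha1 in TPA was 1.09 times that in control (95% counting interval 0.992 to 1.21), and in CDDO+TPA it was 1.02 times that in control (0.919 to 1.13), so no difference in this ratio was detectable at this depth. By reads P4ha1 was the larger of the pair, with 55.2%, 53.8% and 55.5% of the family, but per exon length P4ha2 was, with 56.0%, 59.3% and 57.3% of the summed RPKM. P4hb had 369, 339 and 364 CPM, lowest in the TPA library where P4ha1 and P4ha2 were highest. Its RPKM was 1.24, 0.863 and 1.06 times that of the 3 alpha subunits summed. P4ha1 lies on chromosome 10, 59323296 to 59373304, and P4ha2 on chromosome 11, 54100924 to 54131667, both on the plus strand.

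P4ha3, the third alpha subunit gene, was sparse and went the other way. It had 50, 11 and 19 reads, or 6.24, 1.38 and 2.41 CPM, and the control library's interval (4.63 to 8.23 CPM) did not overlap those of the treated libraries. It was 4.52-fold lower in TPA than in control (2.32 to 9.63) and 2.59-fold lower in CDDO+TPA than in control (1.501 to 4.66). Between the treated libraries the fold was 1.74 (0.788 to 4.05), and no difference was detectable at this depth. P4ha3 made up 1.75%, 0.295% and 0.582% of the family's reads, so its difference hardly touched the sum, which was 357, 469 and 414 CPM. The sum was 1.31-fold higher in TPA than in control (1.25 to 1.38). P4ha3 lies on chromosome 7, 100285520 to 100319699, plus strand.

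**Figure D2:**
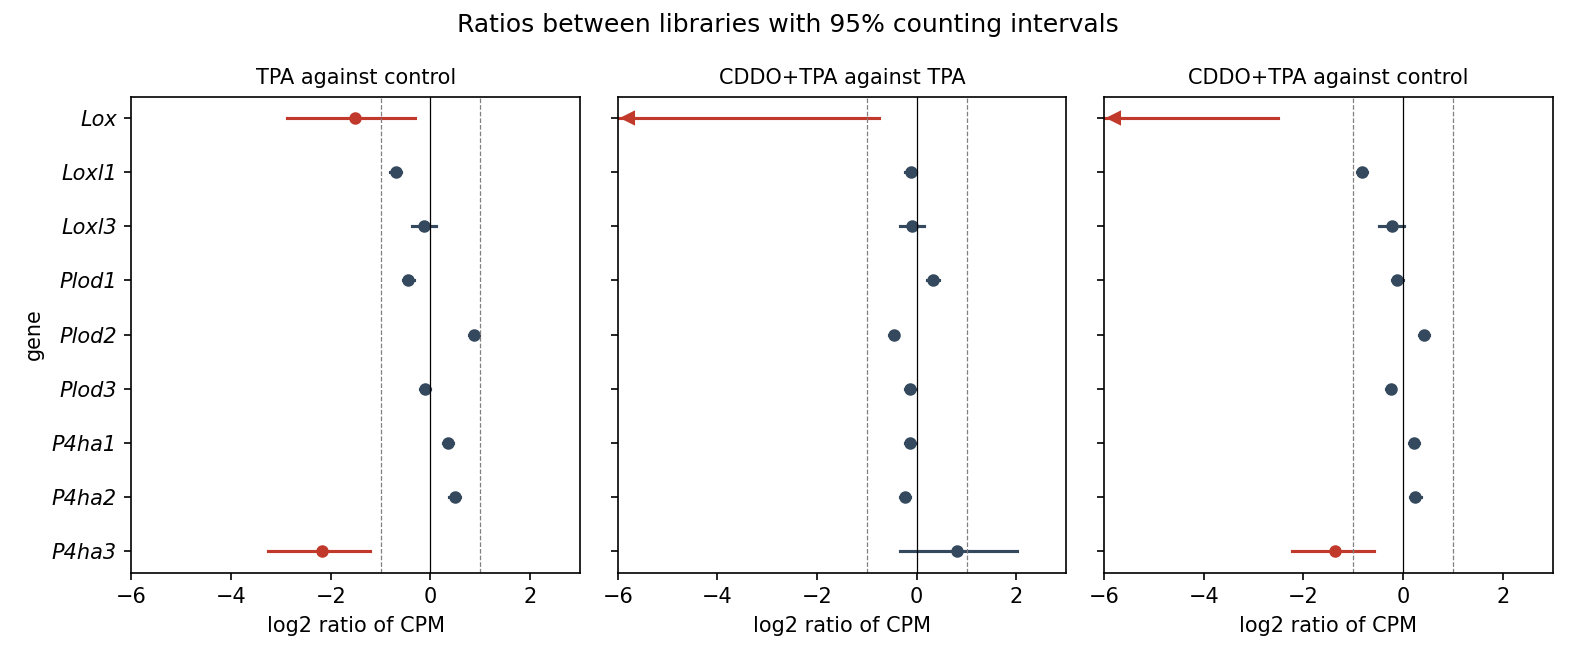
Log2 ratio of CPM, with no prior count, for the 9 measured genes in each of the 3 comparisons (panels), with 95% counting intervals as lines; red marks genes past the size rule, dashed lines mark a fold of 2 in either direction, and the arrowhead is a library with 0 reads. Plod2 at a fold of 1.84 is the highest point in TPA against control, and only Lox and P4ha3 are red.

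Among the lysyl oxidases, Loxl1 was the one abundant member of the set. Its product is best known for elastic fibre renewal. Loxl1 had 248, 153 and 140 CPM (1988, 1218 and 1108 reads), with the control above both treated libraries. It was 1.62-fold lower in TPA than in control (1.51 to 1.74) and 1.77-fold lower in CDDO+TPA than in control (1.64 to 1.90), in each case below the size rule. The treated libraries differed by only 1.09-fold (1.00 to 1.18). In TPA against control, 12.1% of measured genes had a lower log2 fold change than Loxl1, and in CDDO+TPA against control 6.14% had. Loxl1 lies on chromosome 9, 58287723 to 58313212, minus strand.

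Loxl3, whose loss in mice disturbs palate and spine development, had 38.3, 34.9 and 32.7 CPM (307, 278 and 258 reads). The folds were 0.911 in TPA against control (0.772 to 1.07), 0.937 in CDDO+TPA against TPA (0.788 to 1.11) and 0.853 in CDDO+TPA against control (0.720 to 1.01), so that no difference was detectable at this depth. It shares 534 exonic bases with Htra2 on the other strand, a gene with 457, 380 and 421 reads. Loxl3 lies on chromosome 6, 83034224 to 83052564, plus strand.

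Lox and Loxl2 were near the limit of detection. Lox had 23, 8 and 0 reads, or 2.87, 1.00 and 0 CPM; a count of 0 in the CDDO+TPA library allows up to 3 counts, or 0.380 CPM. Lox was 2.86-fold lower in TPA than in control (1.23 to 7.39). In CDDO+TPA it was at least 7.55-fold lower than in control and at least 2.64-fold lower than in TPA against that floor of 3 counts in the library. These bounds take the reads of the other library as exact; with its counting error included, the 95% intervals of the count ratios begin at 5.66-fold and 1.69-fold lower. Loxl2, which encodes an oxidase with scavenger receptor domains that acts on type IV collagen, had 3, 7 and 1 reads. Its ratio of TPA to control was 2.35 (0.536 to 14.1) and no difference was detectable at this depth. Lox lies on chromosome 18, 52516060 to 52529867, minus strand, and Loxl2 on chromosome 14, 69609476 to 69695834, plus strand.

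Since Lox and Loxl2 were sparse, the family's reads lay mostly in Loxl1 and in Loxl4, the remaining family member. Loxl4 had 491, 205 and 322 CPM and was 2.40-fold lower in TPA than in control (2.26 to 2.54), past the size rule. In CDDO+TPA it was 1.57-fold higher than in TPA (1.48 to 1.67). Of the reads of all 5 oxidase genes, Loxl4 held 62.9%, 51.9% and 65.0% and Loxl1 held 31.8%, 38.8% and 28.4%, with Loxl3 at 4.91%, 8.85% and 6.61%. Per exon length the order turned in the TPA library, where Loxl1 held 49.5% of the summed RPKM and Loxl4 40.7%, whereas Loxl4 held 51.7% in control and 54.1% in CDDO+TPA. The share of Lox was 0.368%, 0.255% and 0%. Summed over the 5 genes the family stood at 781, 394 and 495 CPM, 1.98-fold lower in TPA than in control (1.90 to 2.07) and 1.25-fold higher in CDDO+TPA than in TPA (1.20 to 1.32). The higher sum in CDDO+TPA than in TPA came from Loxl4, which is outside the set. In that comparison Loxl1 had a fold of 0.918 and Loxl3 of 0.937, the latter not separable from 1, and the sparse Lox and Loxl2 were not higher either.

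**Figure D3:**
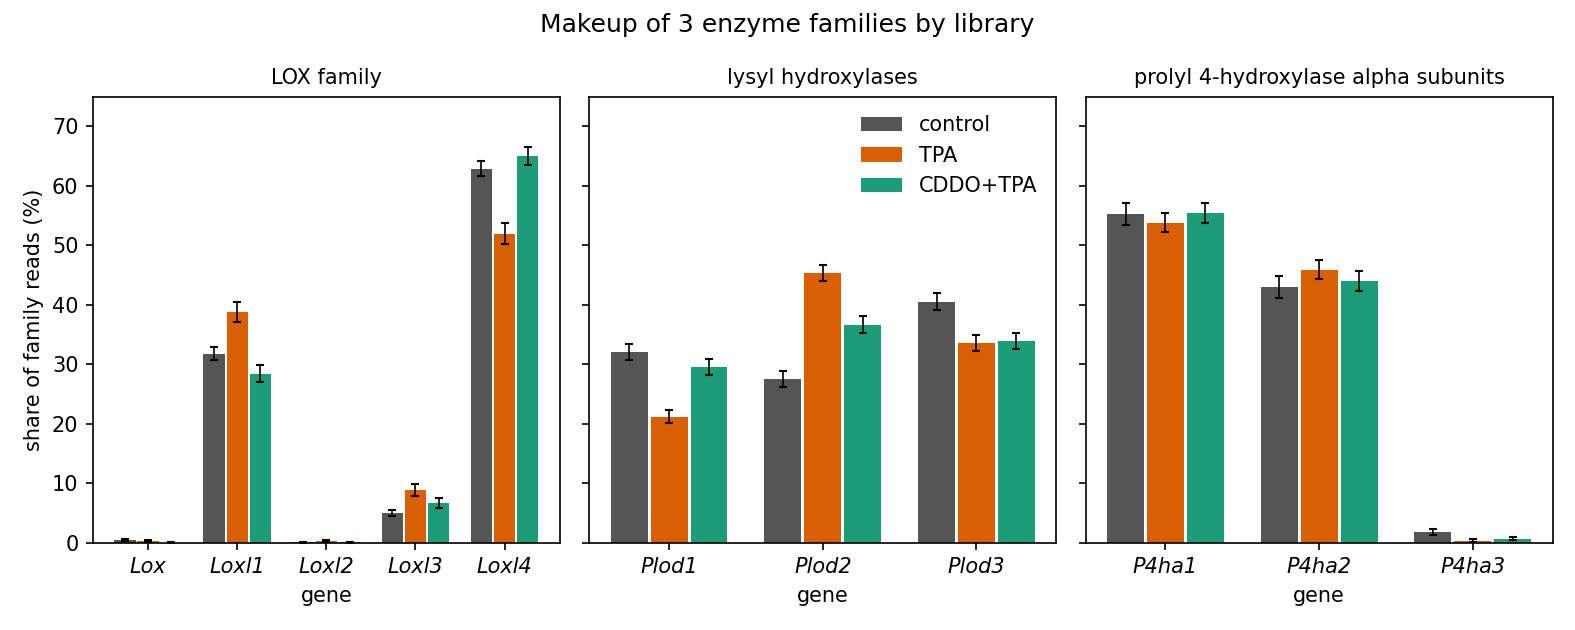
Share of each gene in the reads of its enzyme family (bars, in percent) in each library, with exact binomial 95% intervals as error bars. Plod2 goes from 27.5% in control to 45.3% in TPA, P4ha1 and P4ha2 keep similar shares, and Loxl1 with Loxl4 makes up nearly all of the oxidase reads.

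Collagen chains are the substrates of these enzymes, and in sum they were lower in the TPA library than in control, though single chains went both ways. A list of 16 collagen chains and elastin, chosen for being fibrillar, basement membrane or type VI chains, had 13 measured genes. In TPA against control 2 were higher (Col6a3 and Col2a1) and 5 lower (Col1a1, Col1a2, Col3a1, Col5a1 and Col5a2), and 6 stayed below the rule. Of all measured genes 9.57% were higher and 5.91% lower. Col2a1 had only 1, 26 and 3 reads and reached 1 CPM in the TPA library alone, so it was measured only through the library where it was highest. The median log2 fold change was -0.91, beside a median of 0.00 over all measured genes and -0.13 over the 9 measured enzymes. Col5a2, a fibrillar chain of type V collagen, had 557, 27.7 and 82.5 CPM, and Col1a2, a type I chain, stood at 506, 144 and 207 CPM. Col3a1, the type III chain, had 50.2, 10.8 and 7.22 CPM, whereas Col6a3, a type VI chain, had 78.4, 254 and 207 CPM. In CDDO+TPA against TPA, 1 was higher (Col5a2) and 2 lower (Col11a2 and Col2a1), where 7.87% of all measured genes were higher and 7.78% lower, with a median of -0.04. Col11a2 had 109, 139 and 38.1 CPM. Elastin itself had 4, 0 and 5 reads, and Col11a1 had 0 in every library.

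Summed over the 16 collagen chains, the level was 2.14-fold lower in TPA than in control (2.10 to 2.19) and 1.24-fold higher in CDDO+TPA than in TPA (1.21 to 1.27). The summed RPKM of the collagens was 5.54 times that of the P4ha genes in control, 1.89 times in TPA and 2.66 times in CDDO+TPA. Against the Plod genes the ratios were 3.77, 1.56 and 2.11. Against the 5 oxidase genes they were 3.71, 3.16 and 3.29, a narrower range, though that sum includes Loxl4, which is outside the set. Fibroblast-type genes of these libraries did not share 1 direction: among 14 such markers 12 were measured, with 2 higher (Pdgfra and Dcn) and 3 lower in TPA against control. Of all measured genes 9.57% were higher and 5.91% lower. The summed level of the fibroblast markers was 3272, 2353 and 2778 CPM. The 3 lower markers, Col1a1, Col1a2 and Col3a1, also belong to the collagen list. Pdgfra, a PDGF receptor, stood at 5.24, 34.9 and 76.9 CPM, and Vim, vimentin, at 268, 369 and 356 CPM. Their part in the levels of the enzymes was not tested.

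A list of 24 genes whose products fold, modify or cleave procollagen included 19 measured genes. In TPA against control 1 was higher and 4 lower (P3h1, P3h2, P3h3 and Loxl4), where 9.57% of all measured genes were higher and 5.91% lower, with a median log2 fold change of -0.44. With an assumed coefficient of variation of 0.4 in the intervals, 0 of the 19 were past the rule. P3h1, P3h2 and P3h3 belong to the prolyl 3-hydroxylase family, which uses the same cofactors as the enzymes above. P3h1 had 39.7, 14.6 and 27.1 CPM and was 2.73-fold lower in TPA than in control (2.20 to 3.40). P3h2 had 63.1, 23.4 and 33.7 CPM, and P3h3 had 32.2, 14.9 and 30.2 CPM. In CDDO+TPA against TPA, 2 were higher and 1 lower, where 7.87% of all measured genes were higher and 7.78% lower. The median there was 0.43, beside 0.01 over all measured genes. In CDDO+TPA against control none of the 19 was past the rule in either direction, with a median of -0.10. Of all measured genes 8.02% were higher and 3.37% lower there. Fkbp14, a prolyl isomerase of the endoplasmic reticulum, was 2.46-fold higher in CDDO+TPA than in TPA (1.93 to 3.16), and P3h3 was 2.02-fold higher (1.61 to 2.54). The gene higher in TPA than in control and lower in CDDO+TPA than in TPA was Adamts14, with 0, 9 and 0 reads. Adamts14 reached 1 CPM in the TPA library alone, so it was measured only through the library where it was highest.

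Several genes of that list were little detected. Crtap, whose product forms a complex with that of P3h1, had 3, 5 and 10 reads. The procollagen N-proteinase genes Adamts2 and Adamts3 had 0 reads in every library, as did Colgalt2 and Tll2. Bmp1, which encodes the procollagen C-proteinase that also activates pro-LOX, had 150, 150 and 141 CPM, and Serpinh1, the collagen chaperone HSP47, had 261, 246 and 202 CPM. Colgalt1, the galactosyltransferase that acts on hydroxylysine, had 236, 132 and 181 CPM, below the size rule in each comparison.

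Of 11 genes for scaffolds of the oxidases and for transport of copper and ascorbate, 10 were measured. In TPA against control 0 were higher and 2 lower, Fbln5 and Postn, where 9.57% of all measured genes were higher and 5.91% lower. The median log2 fold change of the list was -0.15. Fbln5, fibulin-5, which tethers LOXL1 to elastic fibres, had 186, 40.2 and 70.6 CPM and was 4.62-fold lower in TPA than in control (4.09 to 5.23). Postn, periostin, which supports the activation of lysyl oxidase, had 9, 0 and 0 reads and reached 1 CPM in the control library alone. With an assumed coefficient of variation of 0.4 in the intervals, 1 of the 2 genes was past the rule. In CDDO+TPA against TPA none of the 10 was past the rule, where 7.87% of all measured genes were higher and 7.78% lower, with a median of 0.34. The copper importer gene Slc31a1 had 161, 91.6 and 114 CPM, the copper pump gene Atp7a had 128, 113 and 160 CPM, and the ascorbate transporter gene Slc23a2 had 201, 224 and 291 CPM.

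Beside Lox, P4ha1, P4ha2 and Plod2, known HIF targets, a list of 18 other HIF targets was set, all of them measured. In TPA against control 5 were higher (Ankrd37, Pfkfb4, Pdk1, Bnip3 and Mxi1) and 0 lower, where 9.57% of all measured genes were higher and 5.91% lower, with a median log2 fold change of 0.53. With an assumed coefficient of variation of 0.4 in the intervals, 2 of the 5 were past the rule. On the log2 scale Plod2 stood at 0.88, P4ha2 at 0.49 and P4ha1 at 0.36, and Lox went the other way at -1.31. Pdk1, a kinase that restrains pyruvate dehydrogenase, had 14.6, 40.9 and 45.6 CPM, and Pfkfb4, a regulator of glycolysis, had 11.4, 38.8 and 37.5 CPM. In CDDO+TPA against TPA 0 were higher and 3 lower (Ankrd37, Car9 and Ddit4), where 7.87% of all measured genes were higher and 7.78% lower. The median was -0.16. With the same assumed coefficient of variation in the intervals, none of these 3 lower genes was past the rule. Ankrd37 had 82 reads in TPA and 29 in CDDO+TPA, and Car9 had 79 and 31. In the same comparison Plod2 stood at -0.46, P4ha2 at -0.24, P4ha1 at -0.14 and Lox at -2.32. Ddit4, a stress-induced inhibitor of mTORC1, had 98.7, 150 and 63.4 CPM. These 2 comparisons share the TPA library. A part of HIF in the levels of the enzymes was not tested.

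Of 7 measured genes of the HIF system itself, 0 were past the size rule in any comparison. Beside the shares of all measured genes given below, 0 of 7 says little of these genes. Hif1a, which encodes the HIF-1 alpha subunit, had 312, 191 and 270 CPM, lowest in the TPA library. Egln1, the main oxygen-sensing prolyl hydroxylase of HIF, had 106, 154 and 132 CPM. Among 11 measured TGF-beta ligands and targets, 2 were higher (Tgfb2 and Ltbp2) and 1 lower (Ctgf) in TPA against control, with a median of 0.07. In CDDO+TPA against TPA 1 was higher (Ctgf) and 2 lower (Tgfb2 and Ltbp2), with a median of -0.27. Tgfb2 had 24, 56 and 18 reads. Ltbp2 had 1, 13 and 1 reads and reached 1 CPM in the TPA library alone, so it was measured only through the library where it was highest. Of all measured genes 9.57% were higher and 5.91% lower in TPA against control, and 7.87% and 7.78% in CDDO+TPA against TPA. In CDDO+TPA against control the shares were 8.02% and 3.37%. Ctgf, a TGF-beta-responsive matricellular gene, had 42.9, 15.6 and 40.4 CPM.

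**Figure D4:**
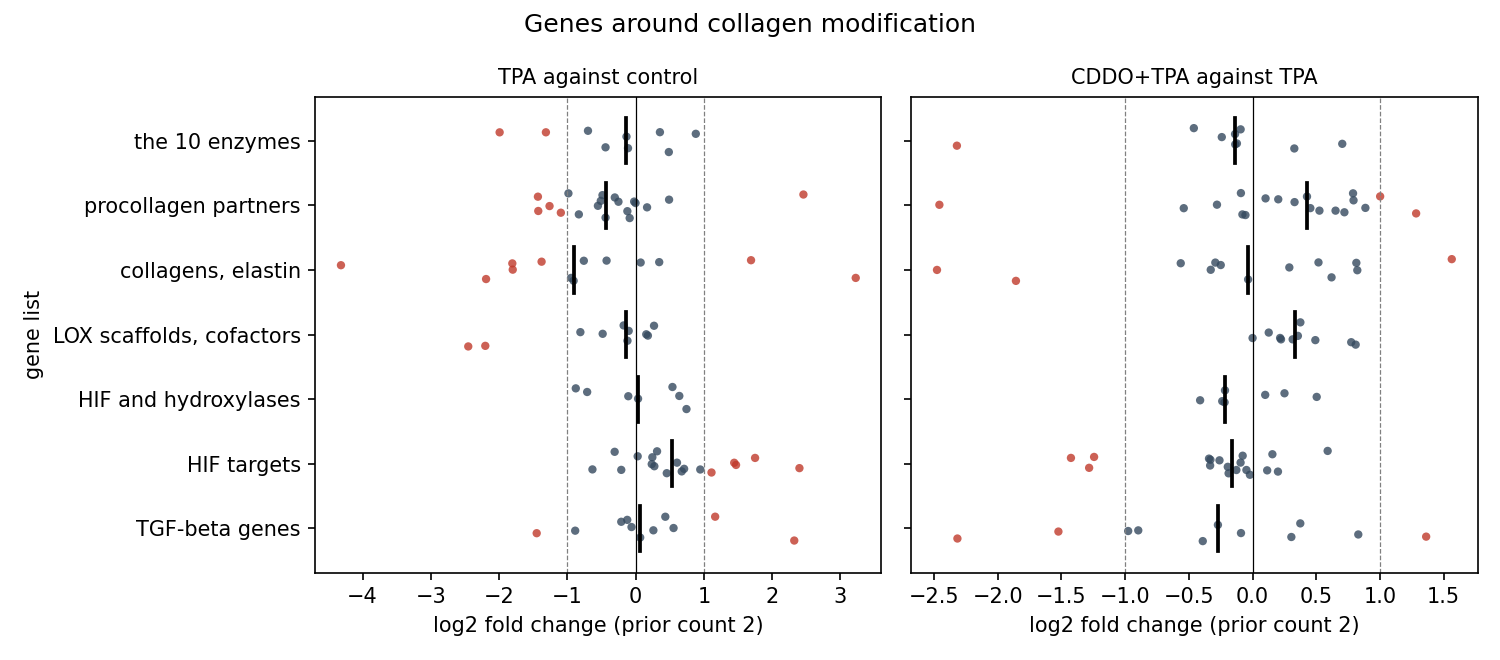
Log2 fold changes (prior count of 2) of the measured genes of 7 lists, TPA against control on the left and CDDO+TPA against TPA on the right; each point is a gene, red points are past the size rule, and black bars are list medians. The collagen list has its median at -0.91 and the HIF target list at 0.53 in the left panel, and the enzymes lie on both sides of 0 in each, from -1.99 to 0.88 and from -2.32 to 0.70, with medians of -0.13 and -0.14.

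The epithelial label was checked against markers. Of 13 keratinocyte markers 4 were measured, and Krt5, Krt1, Krt18 and Epcam had 0 reads in every library. The keratinocyte markers summed to 20.6, 43.3 and 15.6 CPM, and Itgb4, an integrin of hemidesmosomes, had 2.87, 23.2 and 3.29 CPM. Krt14, Trp63 and Cdh1 had at most 4 reads in any library. The keratinocyte markers Krt10, with 104, 73 and 52 reads, and Sfn, with 24, 78 and 26, were measured. The fibroblast markers summed to 3272, 2353 and 2778 CPM, of which Fn1 alone had 1519, 1087 and 1391 CPM. The fibroblast markers Thy1 and Lum each had 0, 0 and 1 reads. Since both lists held detected genes and genes with few or no reads, these markers did not settle the epithelial label. Of 6 leukocyte markers 2 were measured, summing to 28.5, 54.6 and 79.7 CPM over the list, with Ptprc and Cd3e at 0. Of 6 endothelial markers 3 were measured, summing to 66.4, 303 and 218 CPM, nearly all from Vwf at 49.9, 290 and 198 CPM, while Cdh5 and Kdr had at most 3 reads. The part of these markers in the enzymes' levels was not tested, and in a bulk library a lower level per cell and fewer cells with the RNA cannot be told apart.

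Patterns like that of P4ha3 were sought among the 9890 genes with a mean of at least 10 CPM, as the distance between pairs of log2 fold changes, the TPA library against control and CDDO+TPA against it, over 3 libraries. Nearest to P4ha3 were Tenm4, a teneurin, with 94.2, 23.7 and 40.8 CPM (distance 0.073), and Hhipl1, with 69.5, 18.3 and 29.9 CPM (0.083). Within 0.25 lay 11 genes. The counting intervals of P4ha3, from 50, 11 and 19 reads, were far wider than these distances. They ran from 2.32 to 9.63-fold lower in TPA against control, and from a fold of 0.788 to 4.05 in CDDO+TPA against TPA. Its log2 fold changes also depend on the prior count, so the genes nearest to it are uncertain. No such search is given for Lox, whose log2 fold changes against a library at 0 reads depend on the prior count. Outside that rule, and chosen after its values were seen, Pcolce, which encodes an enhancer of the procollagen C-proteinase, was nearest to Plod1, with 246, 181 and 228 CPM (distance 0.0019), but 1134 genes lay within 0.25 of Plod1. With 3 libraries such nearness is common among genes that differ little.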

How the data were processed

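Total RNA of 3 JB6 P+ libraries was sequenced. The authors deposited raw read counts per gene, counted by featureCounts 1.5.3 over mm10 genes of UCSC with only primary alignments kept and no option for strand, per the file headers. The exonic length used for RPKM is a column of the same table, per the file headers. HISAT2, Picard and DESeq are named without version in the submitters' processing notes. The column names mark duplicate removal, which can cap the reads of an abundant gene; the enzymes reached at most 0.731 reads per exonic base. The CDDO column names no TPA and was assigned to CDDO+TPA because no other sample holds CDDO; otherwise statements on CDDO+TPA would describe another treatment. The command lists 7 alignment files and 3 columns were present.

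Library sizes were scaled by TMM (edgeR 4.0.16, R 4.3.3). Fold intervals are exact conditional binomial, levels exact Poisson and shares Clopper-Pearson, all at 95%; those of a ratio of 2 genes are normal approximations on the log scale. All of them leave out the spread between cultures, and reads are not independent molecules. The calculation was tested on simulated data with counting error only and with changes placed in genes with a mean of at least 10 CPM. That test covered neither sparse genes such as Lox and P4ha3 nor the spread between cultures. Genes and lists were chosen with earlier results of these data known. Named were the 10 enzymes, and per list and comparison up to 4 genes past the size rule with at least 10 CPM; other genes were named for their role. A marker of the leukocyte list is not reported here.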

Additional observations from a re-analysis of the deposited data

How the results depend on the processing

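No paired analysis was possible because each group had 1 library, and for the same reason no library could be left out. Total-count, DESeq2 (1.42.0) or upper-quartile scaling, a prior count of 0.5 or 5 and no filter left the counts of enzymes past the size rule as they were: Lox and P4ha3 in both comparisons with control, Lox in CDDO+TPA against TPA. Under a minimum mean of 10 CPM, the enzymes past the rule were 0 in each comparison, since Lox and P4ha3 are not tested, and all genes were 381 higher and 476 lower in TPA against control (1254 and 774 otherwise), 522 and 227 in CDDO+TPA against TPA (1031 and 1019), and 507 and 165 in CDDO+TPA against control (1051 and 442). Intervals widened for an assumed coefficient of variation of 0.4 left 1 enzyme lower in TPA against control (P4ha3), 0 in CDDO+TPA against TPA and 1 in CDDO+TPA against control (Lox); all genes were 601 and 234, 391 and 519, and 416 and 151. In that setting, of the procollagen list 0 genes were past the rule in TPA against control and 2 of the HIF targets were higher. With a fold of 1.5 as the limit, Plod2 was the 1 enzyme higher in TPA against control and Loxl1 joined the 2 lower in each comparison with control, making 3; all genes were 2036 and 1797, 2001 and 1683, and 1757 and 1140. P3h3, at a fold of 2.02, dropped below the rule in CDDO+TPA against TPA under upper-quartile or total-count scaling and with a prior count of 5, leaving 1 gene of its list higher. The log2 fold change of Lox in CDDO+TPA against control was -3.63, and -2.48 with a prior count of 5. The median collagen log2 fold change in CDDO+TPA against TPA was -0.04, and 0.13 with no filter or with a mean of at least 10 CPM. Depth limits Lox, Loxl2 and P4ha3, which had at most 50 reads in any library.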
